A study of Homo sapiens with 12 samples.

Results

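CXCR4 is the receptor for the chemokine CXCL12 and is known for holding dividing germinal-centre B cells in the dark zone. H3K27ac peaks around this gene were examined in clones of SUDHL4, an established diffuse large B-cell lymphoma line. All peaks of the 6 peak lists between positions 136750000 and 137150000 of chromosome 2 (hg19) were taken, an interval of 400 kb in which the gene lies at 136.872 to 136.876 Mb on the minus strand. There were 108 such peaks. Peaks that shared a base in any clones were merged, which gave 17 regions of the 48876 in the genome. The interval was proposed because less acetylation around it after EP300 loss was already known. Differences that involve the EP300 clones are therefore a description of the interval, and their p-values describe the fit and are not independent evidence.

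The 6 clones fell into 3 genotypes of 2 clones each, all grown from single cells after CRISPR/Cas9 editing. The controls (WT in the plots) were edited in PPP1R12C, a neutral site, and still made CREBBP and EP300. The CREBBP-KO clones came from guides against exon 15 (first clone) and exon 20 (second clone), although exon numbers in the name and the protocol of the first clone do not match. The EP300-KO clones came from guides against exon 17 (first clone) and exon 24 (second clone). Each genotype rests on a pair of clones of 1 line, so p-values measure the spread between clones only.

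CXCR4 signals through inhibitory G proteins when it binds CXCL12, which stromal cells of the dark zone release. Cells that lower the receptor move to the light zone, where selection takes place. H3K27ac marks active promoters and enhancers, and the paralogous acetyltransferases CREBBP and EP300 place it.

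The lists held 35054 to 46940 peaks each. They covered 32.6 ± 1.83 Mb in the controls (mean ± SD, n = 2), 31.7 ± 4.86 Mb without CREBBP and 26.1 ± 0.104 Mb without EP300. The labels state an average of 25000000 reads per sample, but the depth of each library is unknown, and its part in the differences was not tested. Fewer acetylated cells and less acetylation per cell cannot be told apart in such data. The B-cell genes MS4A1, CD79A and PAX5 had 3868 to 9502 covered bases within 5 kb of their rounded starts in every clone. The monocyte gene CD14 and the hepatocyte gene ALB had none in any clone, and the T-cell gene CD3E had 570 to 1636.

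Sequences before the start of CXCR4 are shown because the peaks on the gene, which lay near its start, kept the smallest shares of control length among the elements that any EP300-KO clone retained. RefSeq lists 3 starts, of which the others lie 280 and 1914 bases inside the outermost one. The 250 bases before the outermost start (GRCh38.p14, chr2:136118150-136118399, minus strand) and before the innermost (chr2:136116236-136116485, minus strand) follow, 5′ to 3′. These positions belong to another build than the peaks and were not converted. Capitals mark matches to the motifs searched.
CXCR4 outermost start: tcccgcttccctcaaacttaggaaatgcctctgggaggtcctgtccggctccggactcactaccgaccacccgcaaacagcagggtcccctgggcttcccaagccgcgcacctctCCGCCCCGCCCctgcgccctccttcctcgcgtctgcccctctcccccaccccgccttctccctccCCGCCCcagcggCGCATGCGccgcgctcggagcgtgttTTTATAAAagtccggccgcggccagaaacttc
CXCR4 innermost start: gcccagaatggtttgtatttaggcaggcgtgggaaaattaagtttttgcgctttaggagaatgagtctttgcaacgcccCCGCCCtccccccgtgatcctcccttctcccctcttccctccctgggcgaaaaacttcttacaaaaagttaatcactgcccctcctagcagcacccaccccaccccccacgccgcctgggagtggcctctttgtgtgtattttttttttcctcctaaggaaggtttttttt

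The outermost sequence had 68% G and C, against a median of 58% over 35116 RefSeq promoters of the same length, and the innermost had 51.6%. Both strands were searched for 7 motifs. The GC box (GGGCGG) matched at 3 places before the outermost start, the farthest pair sharing a base, and at 1 place before the innermost. It was present in 42.6% of all promoters. The core of the NRF1 motif (CGCATGCG), which reads the same on both strands, matched once, 58 bases before the outermost start, and 1.73% of promoters held it. This core was set after seeing the data, so its low share is no sign of a rare find. The TATA box (TATAAA) matched on both strands at overlapping positions, 30 and 32 bases before the same start, and 10.7% of promoters held it. The E-box (CACGTG), the FOXO motif (TGTTTAC), the CCAAT box (CCAAT) and the octamer (ATGCAAAT) matched in neither sequence, and 6.34%, 2.98%, 32.0% and 1.63% of promoters held them. Before the middle start, whose sequence is not shown, the only match was a CCAAT box, 84 bases away. A match describes letters and is no evidence of binding.

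Across the interval, peaks covered fewer bases in both EP300-KO clones than in any other clone. The covered length was 22.5 and 21.2 kb in the controls. It was 16.5 and 23.8 kb in the CREBBP-KO clones, on either side of the controls. In the EP300-KO clones it was 10.1 and 12.9 kb, with no overlap with the other 4 clones. The means were 21.8 ± 0.892, 20.1 ± 5.19 and 11.5 ± 1.93 kb (SD, n = 2 each), so CREBBP-KO stood at 92.2% and EP300-KO at 52.7% of the controls. Peak numbers differed less, with 22 and 18 in the controls, 19 and 18 without CREBBP, and 15 and 16 without EP300. Of every 10000 bases covered in the genome, 6.71 ± 0.103 lay in the interval in the controls, 6.31 ± 0.669 without CREBBP and 4.40 ± 0.722 without EP300. The interval therefore took a smaller share of the shorter EP300-KO lists.

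**Figure D1:**
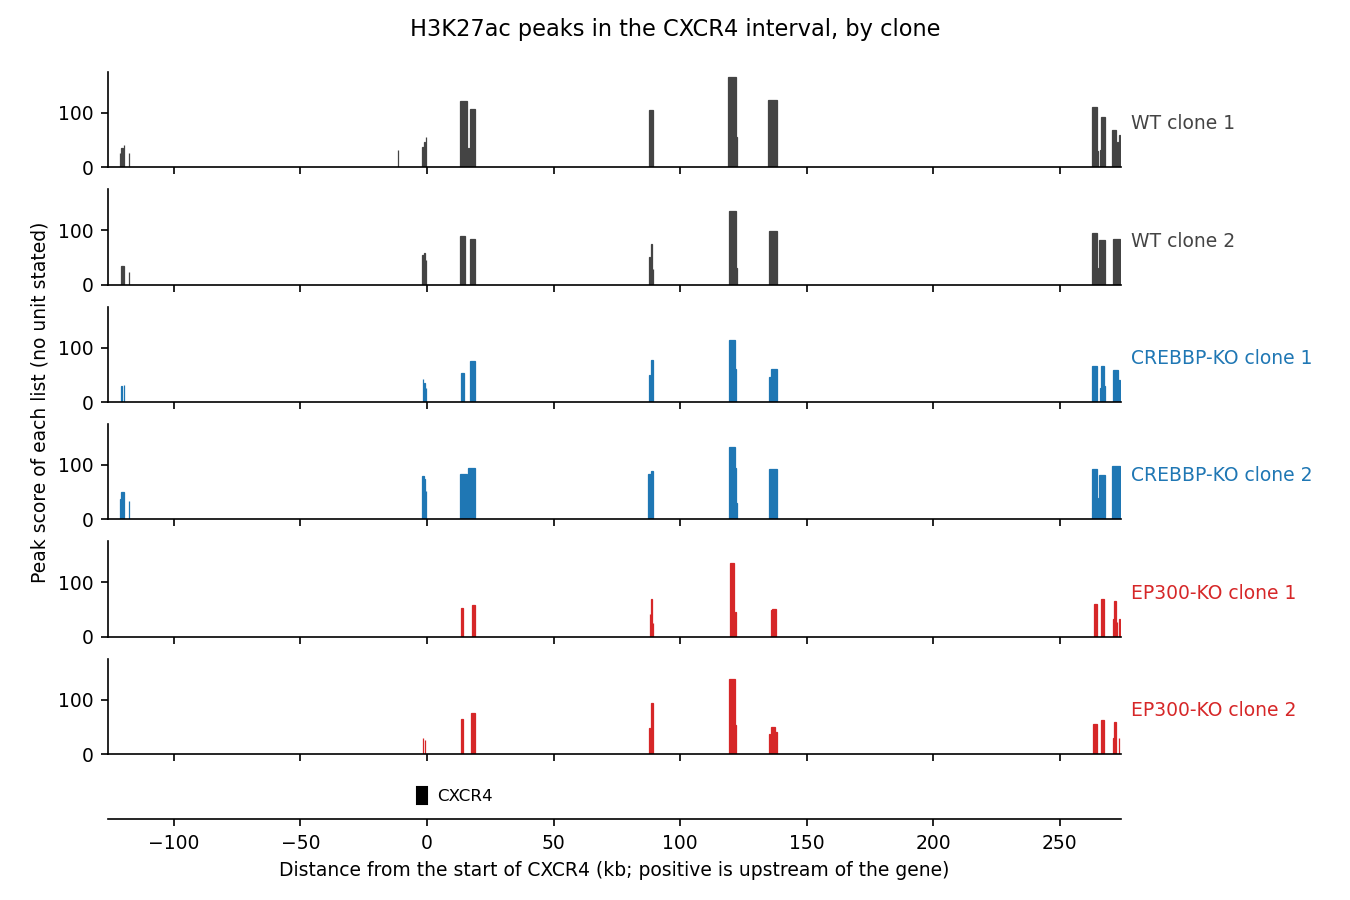
Peaks of the CXCR4 interval in each of the 6 clones, with distance from the start of the gene in kb on the horizontal axis (positive is upstream) and the peak score of the authors, without a stated unit, as the height, which ranks peaks only within a clone. Both EP300-KO clones have no peak near -120 kb, and the peak that starts near 119 kb has the highest score in every clone.

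Regions at most 2 kb apart were joined into 9 elements, a grouping chosen after their positions were seen. Positions are given in kb from 136.876 Mb, the start of the gene, with upstream as positive. One element lay on the gene (-2.0 to -0.3 kb). A pair lay downstream, at -121.3 to -117.7 and -11.6 to -11.4 kb. The 6 upstream elements lay at 13.2 to 19.2, 87.4 to 89.4, 119.0 to 122.4, 134.9 to 138.3, 262.6 to 267.9 and 270.8 to 273.8 kb. They held 89.3% and 89.0% of the covered length of the interval in the controls. In the gene order of RefSeq, the nearest protein-coding gene on the upstream side is THSD7B. Only pseudogenes and a long non-coding RNA are listed between CXCR4 and THSD7B.

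At the gene itself, peaks were short in the controls and were absent or shorter still without EP300. The element covered 1064 and 1198 bases in the controls, 602 and 1345 without CREBBP, and 0 and 296 without EP300. Each control and CREBBP-KO clone had 3 peaks here, the first EP300-KO clone had none, and the second had 2. The CREBBP-KO clones lay on either side of the controls, and the EP300-KO clones lay below the other 4. The EP300-KO mean was 13.1% and the CREBBP-KO mean 86.1% of the control mean. The best score on the gene stood at percentile 57.3 and 60.5 of its own list in the controls, at 42.3 and 69.6 without CREBBP, and at 16.2 in the second EP300-KO clone. The score is the authors' own and ranks peaks only within a list, and the lists differ in length, so these percentiles show no change between clones.

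The 3 regions on the gene differed in length, and in each the EP300-KO clones lay below the other 4. The one nearest the start (136875485 to 136875708) covered 211 and 196 bases in the controls, 109 and 187 without CREBBP, and none without EP300. This was 1 of 2 members in which both CREBBP-KO clones also lay below both controls. The middle one (136874978 to 136875364) covered 300 and 386 bases in the controls, 225 and 378 without CREBBP, and 0 and 115 without EP300. The innermost (136874025 to 136874810) covered 553 and 616 bases in the controls, 268 and 780 without CREBBP, and 0 and 181 without EP300. This innermost region alone was long enough for the fit, through control and CREBBP-KO clones only, with a limma log2 difference of -1.83 (SE 0.60, adjusted p = 0.17) between EP300-KO and control clones. It was -1.07 without the first EP300-KO clone. The start of the gene is known here only to the nearest kb, so whether the region nearest to it reaches it cannot be told.

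**Figure D2:**
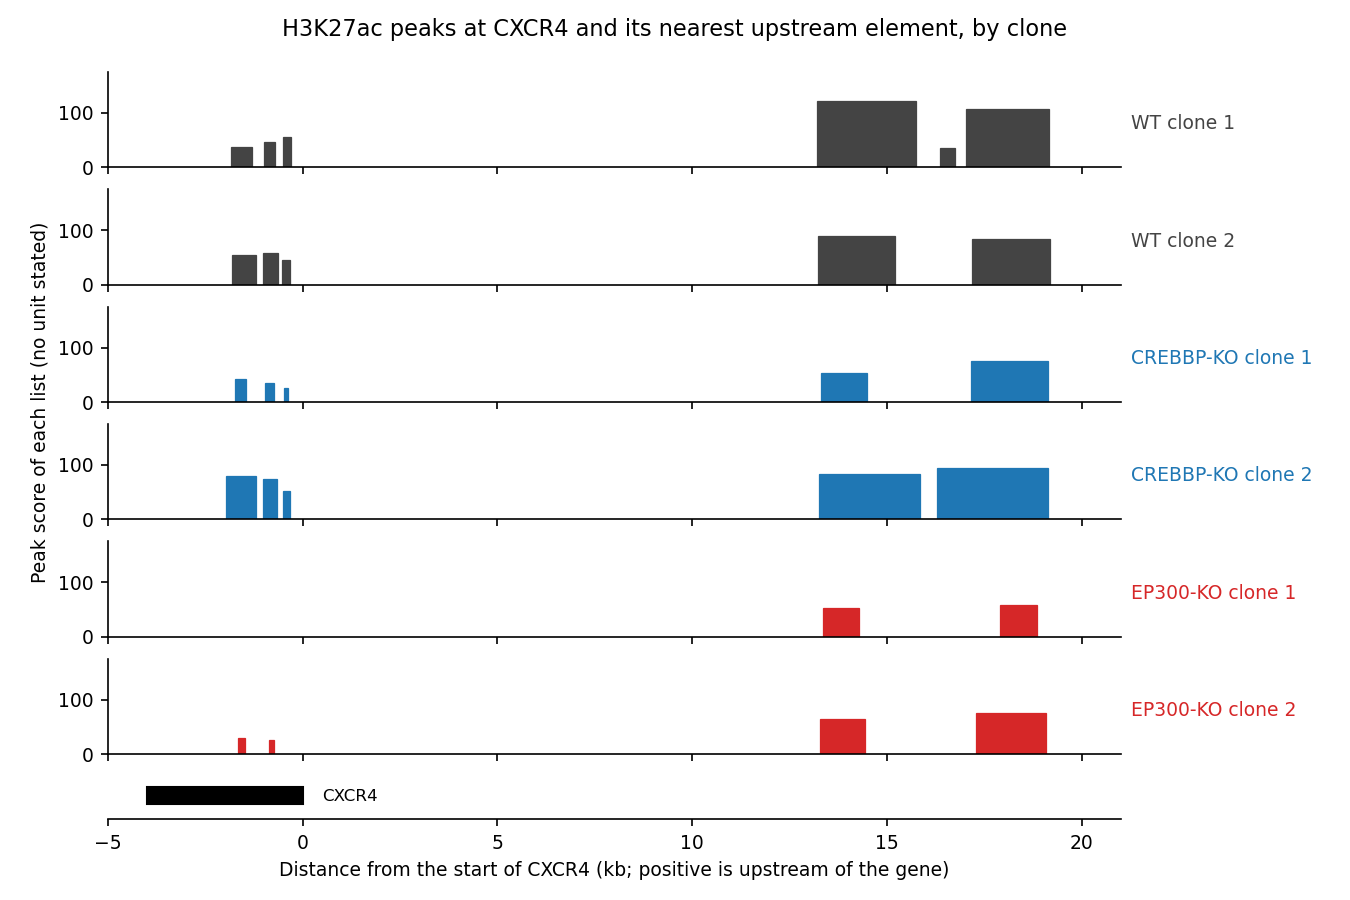
Peaks on CXCR4 (black bar) and in the nearest upstream element of each clone, with distance from the start of the gene in kb on the horizontal axis and the score, without a stated unit, as the height. The 4 control (WT) and CREBBP-KO clones have 3 peaks on the gene, the first EP300-KO clone has none and the second has 2 short ones.

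The nearest upstream element, at 13.2 to 19.2 kb, covered 5058 and 3943 bases in the controls, 3133 and 5437 without CREBBP, and 1889 and 2951 without EP300. The last pair was 53.8% of the control mean and did not overlap the other clones. Of its regions, the one closer to the gene (136889209 to 136891835) had 2547 and 1958 bases in the controls and 936 and 1144 without EP300, a log2 difference of -0.84 (SE 0.32). The farther one (136892288 to 136895179) had 2511 and 1985 bases in the controls and 953 and 1807 without EP300, a log2 difference of -0.52 (SE 0.31) that was -0.07 without the first EP300-KO clone and -0.94 without the second. The CREBBP-KO clones did not move together here, since the closer region had 1160 and 2586 bases and the farther one 1973 and 2851.

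The element at 87.4 to 89.4 kb was the 1 upstream element in which EP300-KO and control clones overlapped. It covered 1555 and 1117 bases in the controls, 1355 and 1839 without CREBBP, and 812 and 1340 without EP300. Its log2 difference between EP300-KO and control clones was -0.11 (SE 0.26). The sign turned without the first control (0.08) and without the first EP300-KO clone (0.24).

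The element at 119.0 to 122.4 kb held the best-scoring peak of the interval in every clone. It covered 3305 and 2928 bases in the controls, 2294 and 2752 without CREBBP, and 2033 and 2279 without EP300. Here, as in no other element, both knock-outs lay wholly below the controls, at 81.0% and 69.2% of their mean. The best peak stood at percentile 99.3 and 95.8 of its own list in the controls, 89.4 and 91.8 without CREBBP, and 92.2 and 94.2 without EP300. Its width was 2974 and 2763 bases in the controls, 2014 and 2248 without CREBBP, and 1823 and 2048 without EP300. The peak was narrower in each knock-out clone than in each control, where it was unbroken. In each knock-out clone a second peak, of 210 to 316 bases, lay in the same region, so these widths leave part of it out. The region that holds this peak (136995024 to 136998001) had log2 differences of -0.20 for EP300-KO and -0.19 for CREBBP-KO against the controls (SE 0.10 each). The first of these was -0.10 without the first EP300-KO clone.

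At 134.9 to 138.3 kb each control had a single unbroken peak, of 3440 and 3266 bases. The first CREBBP-KO clone had 2 peaks with 2964 bases in all, and the second had 1 peak of 3321. The EP300-KO clones had 2 and 3 peaks with 1876 and 2669 bases in all, or 67.8% of the control mean. Its log2 difference between EP300-KO and control clones was -0.36 (SE 0.18), and it was -0.10 without the first EP300-KO clone and -0.59 without the second.

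The most distant pair of elements had nearly equal shares without EP300. At 262.6 to 267.9 kb the controls had 4058 and 4780 bases, against 2973 and 4473 without CREBBP and 1972 and 2300 without EP300, the latter 48.3% of the control mean. Its larger regions had log2 differences of -0.50 (SE 0.16, 137138569 to 137140626) and -0.86 (SE 0.22, 137141496 to 137143905) between EP300-KO and control clones, the former -0.29 without the first EP300-KO clone. A shorter region between them (137140817 to 137141217) had 334 and 341 bases in the controls, 0 and 364 without CREBBP, and none without EP300. At 270.8 to 273.8 kb the controls had 2648 and 2849 bases, against 2570 and 2893 without CREBBP and 1567 and 1048 without EP300, the latter 47.6% of the control mean. The log2 difference there was -0.84 (SE 0.21), and it was -1.09 without the first EP300-KO clone and -0.56 without the second. In both elements control and CREBBP-KO clones overlapped, and the EP300-KO clones lay below them.

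Downstream of the gene, the element at -121.3 to -117.7 kb had no peak in either EP300-KO clone. It covered 1122 and 1133 bases in the controls, and 573 and 1738 without CREBBP. Its best score lay below the middle of each list, at percentile 40 and 27.2 in the controls and 23.2 and 49.9 without CREBBP. Its main region (136755202 to 136756460) had 814 and 994 bases in the controls, 573 and 1259 without CREBBP, and none without EP300. It was the 1 member that limma called, lower without EP300 than in the controls (log2 difference -3.12, SE 0.29, adjusted p = 0.0079) and than without CREBBP (-3.09, SE 0.29, adjusted p = 0.0078). It entered the fit only through the control and CREBBP-KO clones, so this call is a description and no support. With no covered base in 1 genotype the size depends on the pseudocount and ran from -6.28 to -0.83 over the alternatives of the first comparison. The other downstream element (136864423 to 136864647) was a peak of 225 bases in the first control alone. With gaps of up to 12 kb bridged, the element at -121.3 to -117.7 kb joined peaks below the interval in each control and CREBBP-KO clone.

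**Figure D3:**
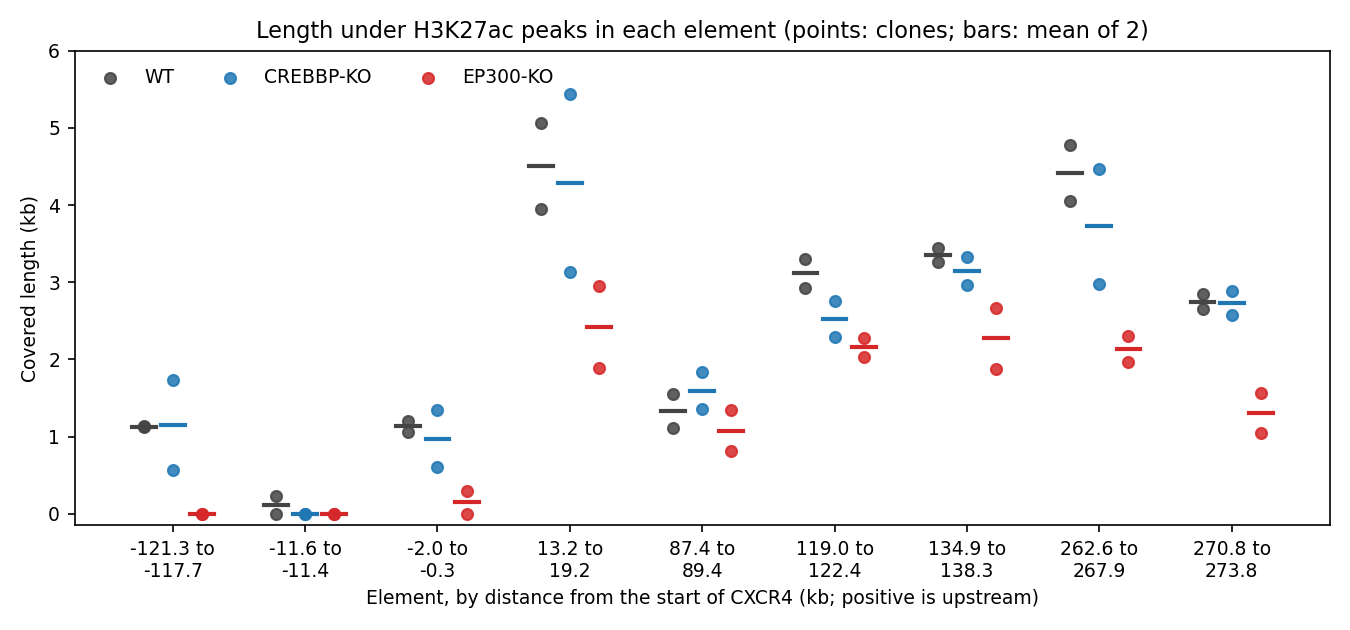
Covered length in kb (vertical axis) of each of the 9 elements, placed by distance from the start of CXCR4 in kb, with 1 point per clone and a bar at the mean of the 2 clones of a genotype. Both EP300-KO points lie below both control (WT) points in 7 of the 9 elements, and both CREBBP-KO points do so in 1. Over all merged regions, not joined into elements, the same orders held in 33.9% and 15.0%. All merged regions include some without a peak in both controls, which cannot meet either order, so these shares run low. Shares over elements of the genome were not counted.

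Counted by region, 14 of the 17 members had less coverage in each EP300-KO clone than in each control, against 33.9% of all merged regions. Only a region with a peak in both controls can meet this order, and most members had such peaks. All regions include those without, so 33.9% is not a like-for-like share. It is lower than the share over regions with a peak in both controls, which was not counted. The other shares below have the same limit for the genotype set as reference. None of the members had more in each EP300-KO clone than in each control, and the share of all regions that did was not counted. The same order held for CREBBP-KO clones against the controls in 2 members, against 15.0% of all regions, and for EP300-KO against CREBBP-KO clones in 12 members, against 27.8%. In 5 members the controls each had a peak where no EP300-KO clone did (9.15% of all regions), and in none did the controls each have a peak where no CREBBP-KO clone did (3.05%). In 2 members the CREBBP-KO clones each had a peak where no EP300-KO clone did (6.5% of all regions). No member was present in a knock-out genotype and absent from the controls, and the share of all regions with such a gain was not counted either. Peaks were found in all 6 clones in 8 members, all of them upstream.

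In limma 10 of the 17 members had enough covered bases to enter the fit (500 or more in at least 2 clones), so the following leaves out the 7 short ones. Between EP300-KO and control clones 1 was lower and 0 higher, where 5.32% of the 19860 regions tested were lower and 1.07% higher. This share of calls is near that of the genome. The estimates ran from -3.12 to -0.11 with a median of -0.68, against 0.06 over all regions, and adjusted p-values ran from 0.0079 to 0.81. The lowest estimates, -3.12 and -1.83, belong to regions that entered the fit only through control and CREBBP-KO clones. The median includes them, so it is a description, and the next lowest estimate was -0.86. Between CREBBP-KO and control clones limma called 0 (0.181% lower and 0.111% higher over all regions), and 0 had an unadjusted p under 0.05. Those estimates ran from -0.31 to 0.28 with a median of -0.07, against 0.02 over all regions. Between EP300-KO and CREBBP-KO clones 1 was lower and 0 higher (5.95% and 1.58% over all regions), with a median of -0.57 against 0.04. The regions that entered only through control and CREBBP-KO clones are part of this median too. This last comparison shares its EP300-KO clones with the first.

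Across the genome, regions that were short in the controls kept less in both knock-outs, so members were set beside all regions of similar length. In the shortest class the medians kept were 34.5% without EP300 and 70.9% without CREBBP. Only regions with a peak in both controls were used, and classes and shares rest on the same control lengths. That choice can itself lower the shares of short regions, and its size was not tested. The 6 members with 2000 or more covered bases in the controls, all upstream, kept 45.04% to 75.2% without EP300. The median over 3694 such regions was 89.1%, with a 25% to 75% range of 75.5% to 97.4%. Without CREBBP the same 6 kept 82.9% to 107%, with 5 of them below a median of 100.5%. The innermost gene region kept 15.5% without EP300 and stood at percentile 10.9 of a class with a median of 86.7%. The middle gene region kept 16.8%, at percentile 24.7 of a class with a median of 72.8%. The region nearest the start kept none, as did 45.6% of all regions with a peak in both controls and under 250 bases, so its absence was common for its length.

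**Figure D4:**
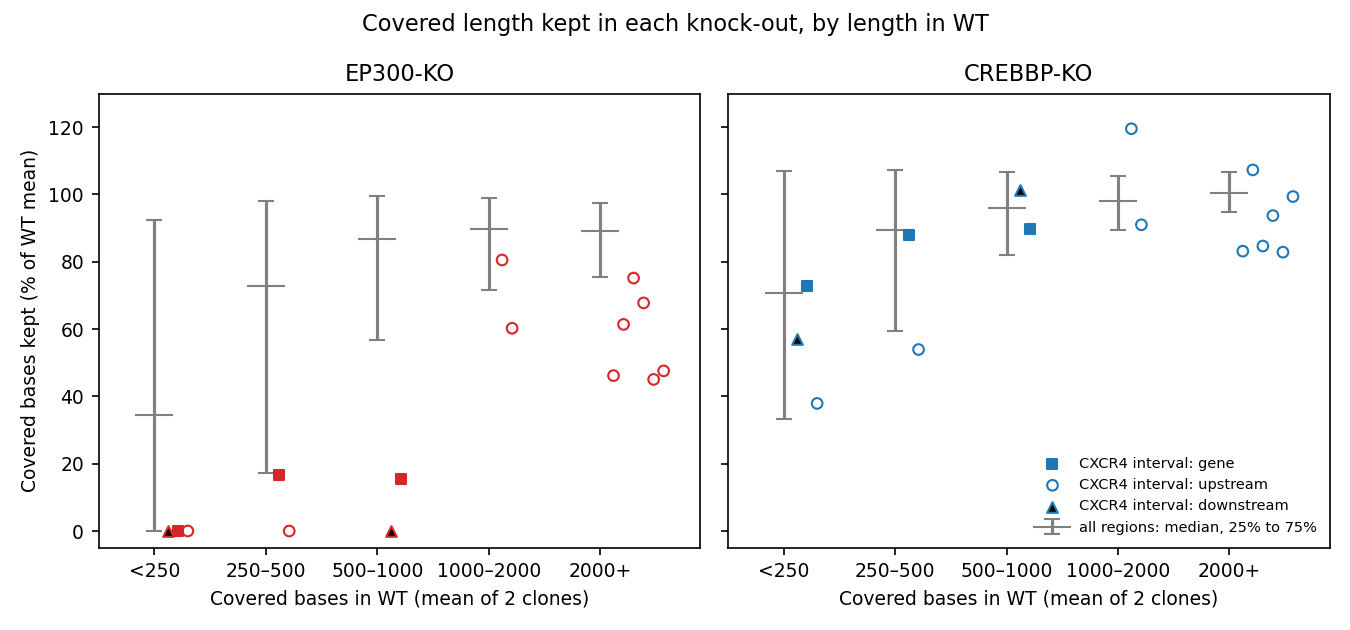
Covered bases kept in each knock-out as a percent of the control (WT) mean (vertical axis) for the 15 members with a peak in both controls, grouped by covered bases in the controls (horizontal axis), beside the median and the 25% to 75% range of all regions. All 15 members lie below the median of their class for EP300-KO, and those of 2000 bases and more lie between 45.04% and 75.2%.

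The EP300-KO peaks lay almost wholly inside the control peaks. Of the 19486 bases covered in both controls, the EP300-KO clones covered 51.7% and 64.8%, and they added 0 and 21 bases outside the peaks of either control. The CREBBP-KO clones covered 80.8% and 98.6% and added 40 and 1283 bases. Such values were not counted over the genome, where the EP300-KO lists also covered less, so they show nothing particular to the interval. Of 25486 bases covered in any clone, 9320 (36.6%) were covered in all 6, none of them on the gene or downstream. The element at 119.0 to 122.4 kb held 2024 of them, the most of any element.

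Just outside the interval, peaks were found on both sides. Below it, the nearest peak ended 6130 to 6308 bases away and scored 153 to 165, more than any peak inside in 5 of the 6 clones. The 40 kb on that side held 5134 and 7444 covered bases in the controls, 6374 and 8287 without CREBBP, and 5353 and 5167 without EP300, so control and EP300-KO clones overlapped. Above it, the nearest peak began 112 to 1474 bases away. The 40 kb on that side held 7443 and 7452 bases in the controls, 6804 and 7578 without CREBBP, and 4060 and 4210 without EP300, and the EP300-KO clones lay below the rest.

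The genome was also divided into tiles of 400 kb, placed so that the interval is 1 tile. Among 3164 tiles tested with limma, the interval differed by -0.71 (log2, SE 0.15, adjusted p = 0.0497) between EP300-KO and control clones, at percentile 6.76 of all tiles, where 6.26% of tiles were lower and 2.53% higher. The call ended in 10 of 14 alternatives, among them on leaving out any 1 of the 6 clones (adjusted p of 0.056 to 0.21). Between CREBBP-KO and control clones it differed by -0.06 (SE 0.15, adjusted p = 0.88), where 0.0316% of tiles were lower and 0% higher. The sign of that small difference turned without the first CREBBP-KO clone (0.043). Between EP300-KO and CREBBP-KO clones it differed by -0.65 (SE 0.15, adjusted p = 0.046), where 10.8% of tiles were lower and 4.42% higher. That call ended in 8 of 14 alternatives, among them without either EP300-KO clone (0.19 and 0.056) or either CREBBP-KO clone (0.11 and 0.17).

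The neighbouring tiles were read in the same way. The tile above the interval, whose covered bases all lie in the 40 kb next to it, had a log2 difference of -0.62 (limma SE 0.11, adjusted p = 0.032) between EP300-KO and control clones, and the tile below had -0.28 (SE 0.18, adjusted p = 0.34). Between EP300-KO and CREBBP-KO clones they had -0.65 (SE 0.11, limma adjusted p = 0.025) and -0.58 (SE 0.18, adjusted p = 0.084). The difference between these tiles was not tested. By covered length among 4608 tiles, the interval ranked 313 and 316 in the controls, 437 and 320 without CREBBP, and 800 and 547 without EP300.

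Genes that act with CXCR4 or also position B cells were read through the tile that holds the start of each, which holds other genes too. Of 16 such genes, 14 lay in a tile with enough covered bases, and they share 13 tiles. Between EP300-KO and control clones 1 of the 13 tiles was lower and 0 higher, near the 6.26% lower and 2.53% higher of all tiles, with a median of 0.0044 against -0.02 over all tiles. Between CREBBP-KO and control clones limma called 0, with a median of 0.07 against 0.02 over all tiles. Between EP300-KO and CREBBP-KO clones 2 were lower, those of FOXO1 (-0.61) and S1PR2 (-0.38), near the share of all tiles (10.8%, with 4.42% higher), and neither call held without any 1 of the EP300-KO or CREBBP-KO clones. On the ligand side, the CXCL12 tile had no peak in any clone. The tile of ACKR3, a scavenger receptor for CXCL12, held 0.75 to 1.27 kb per clone, and neither tile entered the fit.

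The 1 tile called against the controls was that of FOXO1, a regulator of the dark zone program, a count that shows nothing particular to the list. It held 59.1 and 55.6 kb in the controls, 53.7 and 61.1 kb without CREBBP, and 33.1 and 35.2 kb without EP300. Its difference was -0.53 (limma SE 0.10, adjusted p = 0.036), and the call ended on leaving out any 1 of the 6 clones (0.056 to 0.21). The EP300-KO clones did not overlap the others.

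Tiles of receptors that direct B cells elsewhere did not pass between EP300-KO and control clones. CXCR5, which draws cells into follicles, had a log2 difference of -0.29 (limma adjusted p = 0.12), and S1PR2, which confines them to the germinal centre, had -0.32 (adjusted p = 0.072). CCR7 and S1PR1, which lead cells towards T zones and out of the tissue, had 0.24 and 0.31 (adjusted p = 0.15 and 0.29). GPR183, which guides cells to the outer follicle, had 0.18 (adjusted p = 0.21). Among signal transducers, the inhibitory G protein subunit GNAI2 had -0.29 (adjusted p = 0.098), and GNA13, ARHGEF1, ARRB2, DOCK2, RAC2 and the pair RGS1 and RGS13, which share a tile, ran from -0.15 to 0.46. Over the 6 clones, the tiles whose centred log2 values followed that of CXCR4 most closely were those of CXCR5 (Pearson r = 0.995), S1PR2 (0.958) and GNAI2 (0.948). All tiles come from the same 6 libraries and share their depth, so this is a description.

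**Figure D5:**
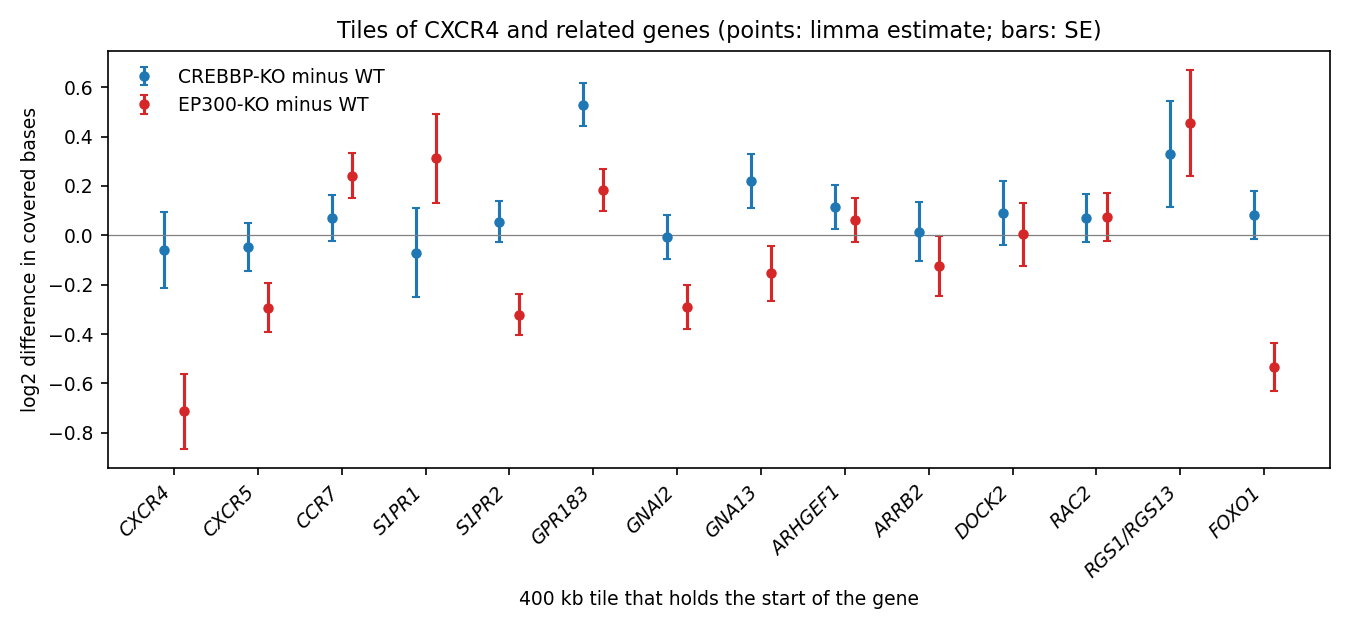
Log2 differences in covered bases (vertical axis) from limma, with their SE as bars, for the 400 kb tiles of CXCR4 and related genes (horizontal axis), for each knock-out against the controls (WT). EP300-KO values are lowest for CXCR4 (-0.71) and FOXO1 (-0.53), whose CREBBP-KO values are -0.06 and 0.08.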

How the data were processed

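H3K27ac ChIP-seq libraries of 6 clones and their 6 inputs make up the series. Fixation was in 1% formaldehyde, fragments had 200 to 500 bp and both ends were read for 150 bp, per the labels' protocols. The submitters' processing notes name CASAVA 1.8, Bowtie2 2.1.0, SAMtools 0.1.19 and hg19. Each deposited list compares a library with its input, per the file headers. The name of the peak caller was not given in the sources used here. Scores of deposited peaks run from 14 or 15 to 170, and what they mean is not stated. The deposited positions were read as counted from 0, so a printed start may be off by 1 base.

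Covered bases were compared with limma (3.58.1, in R 4.3.3) after adding 100 and taking log2, with each clone centred on its median over features covered in all 6 clones, and all 6 clones in 1 fit. A region needed 500 and a tile 2000 covered bases in 2 clones. Calls had an adjusted p (Benjamini-Hochberg over all features) under 0.05. Adding 100 shrinks the differences of short regions. With 2 clones a side, the smallest p of an exact permutation test is 0.333. The fit was tested on simulated data in which only features well above the filter were changed. That test does not cover regions near the filter or without a covered base in 1 genotype.

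The members, gene lists and tests were chosen with earlier results of these data known. All merged regions were accounted for, and those described singly are the gene's, up to 10 others with the most covered bases and any called, with 1 more short region. The starts of marker and related genes on hg19 are general knowledge rounded to 10 kb, with chromosomes checked in RefSeq's GRCh38 table. Exon annotation on hg19 was not used here. Some genes are not reported here. The NRF1 core searched and the gap bridged between peaks were set after seeing the data. Alternatives changed the pseudocount, centring, filter, list length, merging, clones and variance trend.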

Additional observations from a re-analysis of the deposited data

How the results depend on the processing

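No paired analysis was possible because the labels give clones of different genotypes no shared replicate numbers. Between EP300-KO and control clones the interval's tile kept its sign in all 14 alternatives (log2 differences of -0.93 to -0.53). It missed the threshold with a pseudocount of 10 (-0.71, adjusted p = 0.056), quantile normalization (-0.59, 0.074), no filter (-0.71, 0.093), only the 4 clones compared (-0.72, 0.07) and on leaving out clones (-0.91 to -0.53). Between EP300-KO and CREBBP-KO clones it missed it with a pseudocount of 10 (-0.66, 0.051), no centring (-0.79, 0.06), quantile normalization (-0.47, 0.089) and no filter (-0.65, 0.087). In this comparison it also missed it on leaving out any 1 of the knock-out clones (-0.85 to -0.47), but not on leaving out a control. Between CREBBP-KO and control clones, leaving out clones gave -0.16 to 0.043. The count of members called lower went from 1 to 2 in both with a pseudocount of 1000, which added the region at 270.8 to 273.8 kb, and with no filter, which added the shortest gene region. A variance trend in limma, chosen after seeing the data, changed no count of members called.

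The difference in mean covered bases between EP300-KO and control clones moved downstream to -904 at equal list length. That between CREBBP-KO and control clones turned positive downstream at equal list length (251.5) and on leaving out clones ran from -667 to 498 downstream, -529 to 214 on the gene and -4184.5 to 1241.5 upstream. For the region at 87.4 to 89.4 kb, leaving out clones gave -0.43 to 0.24. Related tiles lower in EP300-KO numbered 0 to 2 against the controls and 0 to 5 against CREBBP-KO over 14 alternatives.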

Other observations

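The most distant peaks of the interval belonged to a longer acetylated stretch that crossed its upper edge. When gaps of up to 12 kb between peaks of a clone were bridged, it began 262.6 to 263.5 kb upstream of CXCR4 and ended 290.2 to 290.7 kb upstream. It held 14.1 and 15.1 kb of peaks in the controls, 12.3 and 14.9 kb without CREBBP, and 7.60 and 7.56 kb without EP300. Ranked by covered length among all such stretches of a clone, it stood at 251 and 200 in the controls, 260 and 275 without CREBBP, and 464 and 506 without EP300. The EP300-KO clones lay below the others in both measures. At the lower edge, the same bridging joined the element at -121.3 to -117.7 kb to peaks outside in each control and CREBBP-KO clone. That stretch held 4.67 and 5.91 kb of peaks in the controls, and 4.64 and 7.09 kb without CREBBP. The region that limma called there was thus part of a stretch that reached beyond the interval. The EP300-KO clones had no peak in that element, and their stretches outside the interval were not compared.

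Within the interval, the bases shared by a pair of clones as a share of those covered in either (the Jaccard index) were 0.805 for the controls, 0.692 for the CREBBP-KO clones and 0.688 for the EP300-KO clones. The second CREBBP-KO clone overlapped the controls (0.844 and 0.840) more than the first CREBBP-KO clone did (0.708 and 0.741). For the EP300-KO clones, overlap with the controls was 0.448 and 0.477 for the first and 0.570 and 0.590 for the second.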
